A study of Mus musculus with 2 samples.

Results

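Long noncoding RNAs (lncRNAs) are long transcripts that are not translated, and 10 of them with roles in the nervous system or in dividing cells were examined here in the mouse retina and in cells cultured from it. The genes were listed by name: Mir124a-1hg, Snhg11, Meg3, Miat, Malat1, Neat1, Tug1, Six3os1, Rmst and H19. Transcript rows of the deposited expression table were matched to gene symbols, and the rows of each gene were summed. This gave values for 9 of the 10 genes, out of 31253 genes with a symbol, and 693 lncRNA genes reached 1 FPKM in mNRPCs or retina. No row of the table was paired with the symbol H19 by the gene tables used, so H19 is given no value.

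The study derived mouse neural retinal progenitor cells (mNRPCs) from adult C57BL/6 retina and asked whether they keep the features of retinal progenitors. The mNRPC library came from cells at passage 24, which were grown on Matrigel in N2/B27 medium with bFGF and the GSK3 inhibitor CHIR99021. The other library came from retina tissue of C57BL/6 mice, with no culture or factor named for the tissue itself. There was 1 library per group, so the comparison has no replicate check, no p-value was calculated, and "higher" and "lower" describe these libraries only. The age of the retina donors, the number of animals and whether cells were pooled were not stated in the labels.

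Values are FPKM, fragments normalised to transcript length and to library size. The log2 ratio is log2 of (mNRPC FPKM + 1)/(retina FPKM + 1), and genes whose ratio was at least 1 in size are called higher or lower in mNRPCs. Depth, estimated from the FPKM steps, was 6.60e+06 fragments for mNRPCs and 4.97e+06 for retina. Ranges in brackets are 95% counting intervals from estimated fragments and cover counting error only. The deposited values hold no lengths. Row lengths in bases, and the fragments estimated from them, are those of the GENCODE M21 transcript linked to each row. All 10 rod markers were lower in mNRPCs, where they summed to 10.9 FPKM against 26289 FPKM in retina, beside 30.0% of all genes lower. All 10 reached 1 FPKM in retina and 3 in mNRPCs, so the count is a description. Of the retinal progenitor markers, Pax6 (123 FPKM), Six3 (39.7 FPKM), Sox2 (231 FPKM) and Nes (9.42 FPKM) were expressed in mNRPCs, whereas Rax and Six6 were listed at 0 there, which in this table can be a failed estimate.

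As background, lncRNAs act in different compartments and in different ways. Malat1 and Neat1 stay in the nucleus, where Malat1 gathers in nuclear speckles, bodies rich in splicing factors, and Neat1 is the scaffold on which paraspeckles are built. Others are precursors of small RNAs (Mir124a-1hg of the neuronal microRNA miR-124, Snhg11 of small nucleolar RNAs), are expressed from the maternal chromosome of imprinted domains (Meg3, H19), or lie beside regulators of eye development (Six3os1, antisense to Six3).

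The sequences around the start sites of 4 of the genes are shown first, because Meg3 and Snhg11 were much lower in mNRPCs and Miat was listed at 0 there, whereas Malat1 was within a factor of 2. RefSeq promoters of GRCm38.p6, reaching from 250 bases before to 50 bases after the start site, were matched for 6 of the 10 genes. Capitals mark any of 6 motifs on either strand: TATAAA, to which the basal machinery binds, the cAMP response element TGACGTCA, the SP1 element GGGCGG, the element CCAAT named after its letters, TAATCC, which is recognised by the photoreceptor factor CRX, and the E-box CACGTG. Each line runs 5′ to 3′ along the strand of the gene.
Meg3 promoter, chr12:109540746-109541045, plus strand: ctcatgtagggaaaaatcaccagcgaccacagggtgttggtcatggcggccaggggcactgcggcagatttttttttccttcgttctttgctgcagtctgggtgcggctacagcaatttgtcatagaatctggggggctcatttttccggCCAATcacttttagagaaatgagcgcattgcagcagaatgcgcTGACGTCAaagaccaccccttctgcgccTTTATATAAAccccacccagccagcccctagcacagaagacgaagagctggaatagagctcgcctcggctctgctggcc
Snhg11 promoter, chr2:158375463-158375762, plus strand: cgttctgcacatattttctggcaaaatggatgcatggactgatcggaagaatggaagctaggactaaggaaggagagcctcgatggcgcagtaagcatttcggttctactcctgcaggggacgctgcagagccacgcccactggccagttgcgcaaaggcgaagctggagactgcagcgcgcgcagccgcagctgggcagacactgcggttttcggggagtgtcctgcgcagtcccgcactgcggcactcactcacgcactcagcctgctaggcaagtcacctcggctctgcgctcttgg
Miat promoter, chr5:112228899-112229198, minus strand: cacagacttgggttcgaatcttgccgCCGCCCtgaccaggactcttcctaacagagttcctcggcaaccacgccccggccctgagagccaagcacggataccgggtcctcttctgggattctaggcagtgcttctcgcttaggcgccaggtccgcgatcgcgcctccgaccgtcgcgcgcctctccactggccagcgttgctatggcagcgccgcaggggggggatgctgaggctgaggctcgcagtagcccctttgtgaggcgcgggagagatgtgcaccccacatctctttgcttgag
Malat1 promoter, chr19:5802623-5802922, minus strand: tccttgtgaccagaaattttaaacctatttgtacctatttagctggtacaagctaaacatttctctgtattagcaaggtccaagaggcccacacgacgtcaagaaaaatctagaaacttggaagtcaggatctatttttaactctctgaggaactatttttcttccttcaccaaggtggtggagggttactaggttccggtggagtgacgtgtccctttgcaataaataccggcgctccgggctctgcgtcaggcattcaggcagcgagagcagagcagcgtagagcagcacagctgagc

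The Meg3 promoter held CCAAT at position -100, TGACGTCA at -57 and TATAAA at -25 relative to the start site, and a TATAAA on the other strand at -29 overlapped the latter. Of 32817 promoters of this length, 13.6% held TATAAA, 1.79% TGACGTCA, 37.4% CCAAT, 35.6% GGGCGG, 7.06% TAATCC and 7.15% CACGTG on either strand. A second RefSeq start site of Meg3, at chr12:109545148-109545447, held none of the 6 motifs. The Miat promoter held GGGCGG once, as its complement, and the Snhg11 and Malat1 promoters held none of the 6. The promoters differed in composition, with GC contents of 53.7% (Meg3), 60.0% (Snhg11), 64.3% (Miat) and 47.0% (Malat1) against a median of 52.7% over all promoters. A match is a description of letters and no evidence of binding.

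Some of the most abundant lncRNAs of the retina library were nearly missing from the mNRPC library. Mir124a-1hg, Snhg11 and Meg3 ranked 1, 4 and 7 among lncRNA genes in retina, and each was below 0.2 FPKM in mNRPCs. Miat was listed at 0 in mNRPCs. Neat1 went the other way, at 29.9-fold the retina level, and Malat1, Tug1, Rmst and Six3os1 were within 2-fold of retina. In all, 1 gene was higher, 4 were lower and 4 were between, with a median log2 ratio of -0.67. The 4 lower genes reached 1 FPKM in retina only, so their count is a description. Over all 13780 genes compared, 24.5% were higher and 30.0% lower, with a median of -0.12. Over the 693 lncRNA genes 13.7% were higher and 59.5% lower, with a median of -1.17. Of these lncRNA genes, 595 reached 1 FPKM in retina and 305 in mNRPCs. Many thus entered through retina only, and their lower share follows in part from the filter. Among all genes past the threshold the higher ones made up 44.9%, and 30.2% when both libraries were rescaled to a common sum or 27.3% when rod and cone genes were left out of the scaling.

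**Figure D1:**
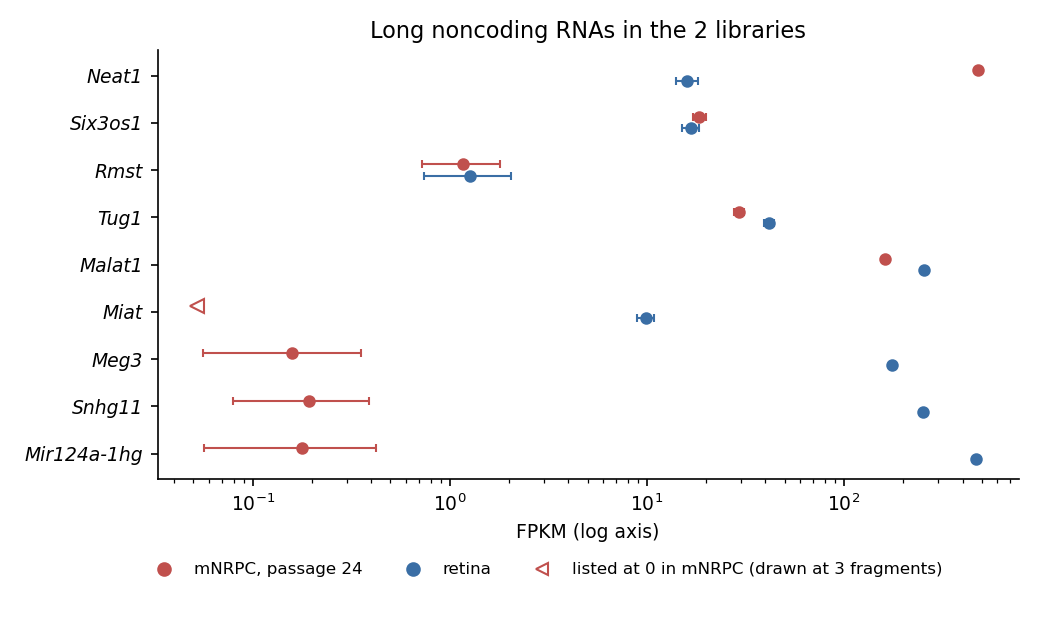
FPKM of 9 long noncoding RNAs (log axis) in the mNRPC library (red) and the retina library (blue), with 95% counting intervals as bars. The open triangle marks Miat, listed at 0 in mNRPCs and drawn at the level of 3 fragments (0.0519 FPKM). Mir124a-1hg, Snhg11 and Meg3 lie below 0.2 FPKM in mNRPCs and at 175 to 468 FPKM in retina, whereas Neat1 lies at 477 FPKM in mNRPCs and 16.0 FPKM in retina.

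Mir124a-1hg is the host transcript of Mir124a-1, a source of miR-124, the most abundant microRNA of neurons. The gene lies on the plus strand of chromosome 14, starting at position 64588115. Its single row of 4103 bases was at 468 FPKM [459 to 478] in retina, the highest lncRNA of that library, and at 0.178 FPKM [0.0565 to 0.422] in mNRPCs. The mNRPC value rested on about 4.83 fragments and was 0.0381% [0.0121 to 0.0902] of the retina value, a log2 ratio of -8.64. No other lncRNA gene of the 693 had a lower log2 ratio, although 1 did with a pseudocount of 0.1 FPKM. A second host of the same microRNA, Mir124-2hg, was at 115 FPKM in retina and listed at 0 in mNRPCs. The hairpin rows of Mir124a-1 and Mir3078, which lie within Mir124a-1hg, were listed at 0 in both libraries, so the microRNAs themselves were not measured here.

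Snhg11, a small nucleolar RNA host gene expressed in neurons, lies on the plus strand of chromosome 2 from position 158375713. It was at 253 FPKM [247 to 259] in retina and at 0.192 FPKM [0.0798 to 0.388] in mNRPCs, which is 0.0760% [0.0315 to 0.153] of the retina value and a log2 ratio of -7.73. Its single row, of 5864 bases, was paired with the symbol only through GENCODE, where the transcript is annotated as protein coding, while RefSeq lists the gene as lncRNA. Of the genes on either side, Snhg17 was at 7.24 FPKM in mNRPCs and 5.40 FPKM in retina, and the log2 ratio of Ralgapb was -0.68, with -1.20 under the common sum, -1.30 without rod and cone genes in the scaling and -0.0057 with curated rows.

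Meg3, an imprinted RNA expressed from the maternal chromosome and able to slow cell growth, occupies chr12:109540996-109571729 on the plus strand. It was at 175 FPKM [171 to 179] in retina and at 0.159 FPKM [0.0558 to 0.355] in mNRPCs, about 5.60 fragments. The mNRPC value was 0.0909% [0.0319 to 0.203] of the retina value, and the log2 ratio was -7.25. All 3 rows of Meg3 were low in mNRPCs. In retina the 14548-base row held 45.2% of the sum, the 1988-base row 25.7% and the 1896-base row 29.1%. Shares between rows that overlap are estimates and less certain than the sum.

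Meg3 belongs to the Dlk1-Dio3 domain, in which maternal noncoding RNAs and paternal protein-coding genes lie side by side. Of 7 other genes of the domain, 3 reached 1 FPKM, and they did so in retina only, so their lower level in mNRPCs is a description that follows from that filter. Rian, the maternal RNA that carries small nucleolar RNAs, was at 64.4 FPKM in retina and 0.0451 FPKM in mNRPCs. Mirg, the microRNA-containing RNA of the domain, was at 7.32 FPKM in retina, and the neuronal gene Begain at 8.31 FPKM, and both were listed at 0 in mNRPCs. With curated rows alone the log2 ratio of Begain was -0.93, below the threshold. Dlk1 and Rtl1, the paternal genes nearest to Meg3, were listed at 0 in both libraries. Thus the maternal RNAs Meg3, Rian and Mirg were all expressed in retina and all at or near 0 in mNRPCs.

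Miat, also known as Gomafu, is a nuclear RNA of neurons and of developing retinal cells. Its 2 rows were at 5.55 FPKM and 4.31 FPKM in retina, 9.85 FPKM [8.94 to 10.8] in sum, and both were listed at 0 in mNRPCs, where 3 fragments would be 0.0519 FPKM. As a 0 can be a failed estimate, no fold is given. Miat is known for repeats of TACTAAC, the letters of the intron branch point, which are bound by splicing factors such as SF1. The longest GENCODE M21 transcript of Miat held 6 of them in 9163 bases, the highest number among the 4732 lncRNA genes searched, of which 3.97% held at least 1. Neat1 held 1, and the other 8 genes examined held none. The densest stretch, in the last of 7 exons at chr5:112217309-112217460 (GRCm38, minus strand), is shown with its 3 repeats in capitals because it is the feature by which Miat is recognised.
Miat repeats: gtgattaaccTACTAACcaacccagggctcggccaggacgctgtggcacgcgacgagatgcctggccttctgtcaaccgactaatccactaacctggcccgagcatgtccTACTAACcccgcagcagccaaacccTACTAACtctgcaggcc

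Genes for proteins that bind these repeats were compared as well. Sf1, the branch point factor, was at 62.5 FPKM in mNRPCs and 78.3 FPKM in retina. Qk, an RNA-binding protein of glia and stem cells, was at 54.9 FPKM and 39.2 FPKM. Celf3, a neuronal splicing regulator, was at 33.7 FPKM in retina and listed at 0 in mNRPCs. The log2 ratios of Sf1 (-0.32) and Qk (0.48) were below 1 in size and changed sign in alternatives, Sf1 with curated rows (0.67) and Qk without rod and cone genes in the scaling (-0.18).

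**Figure D2:**
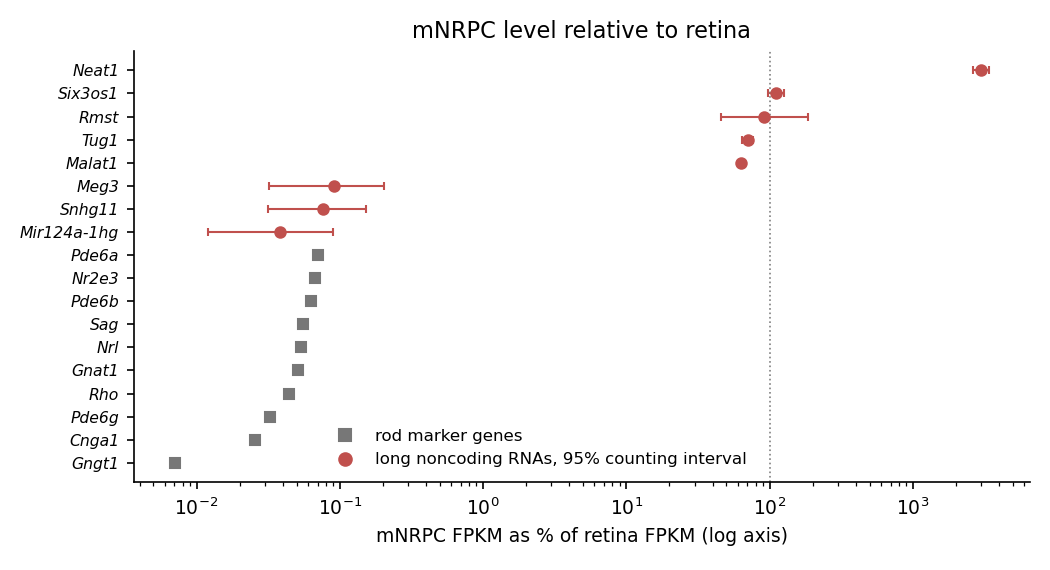
The mNRPC level as a percentage of the retina level (log axis) for 10 rod marker genes (grey squares) and 8 long noncoding RNAs (red circles, 95% counting intervals). Mir124a-1hg, Snhg11 and Meg3, at 0.0381% to 0.0909%, sit beside the rod markers, at 0.00702% to 0.0703%, and Neat1 sits far to the right of the dotted line at 100%.

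The trace of Mir124a-1hg, Snhg11 and Meg3 in mNRPCs was of the same order as that of the rod markers, whose mNRPC level was 0.00702% to 0.0703% of the retina level with a median of 0.0521%. All 10 rod markers were above 0 in mNRPCs, and the part of retinal cells or of carried-over fragments in these low values was not tested. The ganglion cell markers were lower in 9 of 9 genes, the bipolar markers in 8 of 8 and the Müller glia markers in 8 of 8, while the amacrine markers were lower in 6 of 8, with 1 higher, and the horizontal cell markers in 2 of 3, beside 30.0% of all genes lower. Most of these markers reached 1 FPKM in retina only (2 of 9 ganglion, 2 of 8 bipolar and 3 of 8 Müller glia markers did so in mNRPCs). Of 6 fibroblast and mesenchyme markers compared, 2 were higher and 1 was lower, beside 24.5% of all genes higher and 30.0% lower. The higher ones were Col3a1 (450 FPKM in mNRPCs and 0.311 FPKM in retina) and Postn (12.8 and 0.320 FPKM). Both reached 1 FPKM in mNRPCs only, so their count is a description. The lower one was Thy1 (0.244 FPKM in mNRPCs and 106 FPKM in retina), which is also among the ganglion cell markers and reached 1 FPKM in retina only. Col1a1, Dcn and Pdgfra were between. In bulk RNA, fewer cells of a type and less RNA per cell cannot be told apart.

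Neat1 was far higher in mNRPCs. It had the largest log2 ratio of the 693 lncRNA genes, although 16 lncRNA genes had a larger one with a pseudocount of 0.1 FPKM and 1 to 4 under 3 of the 4 scalings. It lies on the minus strand at chr19:5824708-5845480. Its level was 477 FPKM [468 to 487] in mNRPCs and 16.0 FPKM [14.02 to 18.15] in retina. The fold was 29.9 [26.3 to 34.1], the log2 ratio 4.82, and 98.7% of all genes compared had a lower ratio. Neat1 ranked 2 among lncRNA genes in mNRPCs and 76 in retina. Only the short form of Neat1, a row of 3004 bases, is in the table, and this row was lost when accessions were matched with version. The long form, which is the one that assembles paraspeckles, shares its first part with the short form and had no row of its own, so reads of either form could be assigned to this row.

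Malat1, one of the most abundant nuclear RNAs of mammalian cells, is the neighbour of Neat1, 22036 bases away on the same strand. It was at 161 FPKM [157 to 165] in mNRPCs and 256 FPKM [251 to 262] in retina, which is 62.7% [60.8 to 64.7] of the retina value and a log2 ratio of -0.67. In retina Malat1 was 16.0-fold above Neat1, and in mNRPCs Neat1 was 2.97-fold above Malat1. The order of this neighbouring pair was thus opposite in the libraries. Frmd8, which lies 5494 bases from Neat1, was at 19.3 FPKM in mNRPCs and 3.48 FPKM in retina (log2 ratio 2.18).

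Neat1 alone made up 69.4% of the summed FPKM of the 9 genes in mNRPCs and 1.29% in retina. Malat1 made up 23.4% and 20.7%. The sum itself was 688 FPKM in mNRPCs and 1238 FPKM in retina, which was 16.9% and 16.2% of the FPKM of all lncRNA genes. The lncRNA class was smaller in mNRPCs, with 0.658% of all FPKM and 305 genes at 1 FPKM or more, against 1.77% and 595 genes in retina.

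Of 14 genes for paraspeckle proteins, the partners of Neat1, 3 were higher, 2 lower and 9 between, with a median log2 ratio of 0.01, beside 24.5% of all genes higher and 30.0% lower. Under the common sum and without rod and cone genes in the scaling, 0 were higher and 4 lower, with medians of -0.50 and -0.64. Nono, a core protein of paraspeckles, was at 184 FPKM in mNRPCs and 88.8 FPKM in retina (log2 ratio 1.04), and was below the threshold under 3 of the 4 scalings tried (0.38 to 0.91). Pspc1 was at 12.1 FPKM and 18.0 FPKM. Sfpq was at 78.5 FPKM and 116 FPKM (log2 ratio -0.56), but its rows disagreed, since curated rows alone gave 2.88 and the highest row alone -2.05. The genes furthest from 0 were Dazap1 (1.43), Nudt21 (1.26), Tardbp (-1.09) and Hnrnph3 (-1.61), all RNA-binding or RNA-processing proteins. Dazap1 (0.94 and 0.78) and Nudt21 (0.76 and 0.60) were below the threshold under those scalings, and Hnrnph3 was at -0.38 with curated rows.

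Of 14 genes for nuclear speckle proteins, among which Malat1 resides, 0 were higher, 5 were lower and 9 were between, with a median of -0.57, beside 24.5% of all genes higher and 30.0% lower. The median was -0.17 with curated rows, -0.30 with the highest row of each gene, -1.09 under the common sum and -1.24 without rod and cone genes in the scaling. The lower ones were Pnn (-1.25), Srrm1 (-1.20), Srsf4 (-1.15), Srrm2 (-1.13) and Srsf5 (-1.05), all splicing factors or scaffolds of speckles. These lay close to the threshold, and 4 of the 14 were lower under the trimmed mean scaling and 8 when rod and cone genes were left out of the scaling. Srrm2 was at -0.21 with curated rows, and 2 of the 14 were higher with the highest row of each gene.

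Tug1, an RNA first described in the developing retina and needed for photoreceptor formation, was at 29.4 FPKM [27.6 to 31.2] in mNRPCs and 41.8 FPKM [39.4 to 44.4] in retina. This is 70.3% [64.5 to 76.6] of the retina value and a log2 ratio of -0.49. Its 3 rows differed unequally: the 4720-base row was at 14.1 FPKM and 19.5 FPKM, the 6719-base row at 7.91 FPKM and 7.54 FPKM, and the 5112-base row at 7.35 FPKM and 14.8 FPKM. Morc2a, which starts 375 bases away on the opposite strand, was at 10.1 FPKM in both libraries. Both Malat1 and Tug1 crossed the threshold to lower when the libraries were rescaled to a common sum (-1.18 and -1.01) or scaled without rod and cone genes (-1.34 and -1.14).

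Six3os1, transcribed opposite to the eye field gene Six3, was at 18.5 FPKM [17.1 to 20.0] in mNRPCs and 16.7 FPKM [15.1 to 18.4] in retina, a log2 ratio of 0.14. Six3 itself was at 39.7 FPKM and 33.2 FPKM (log2 ratio 0.25). Both ratios turned negative under the common sum (-0.35 and -0.25) and without rod and cone genes in the scaling (-0.49 and -0.40), so no direction is given for either. The genes overlap on opposite strands and the strand setting of the libraries is not stated, so reads of the overlap cannot be told apart. Six2, the next gene on the other side, was at 12.9 FPKM in mNRPCs and 0.468 FPKM in retina (log2 ratio 3.24). Of the 8 rows of Six3os1 the main one was at 11.2 FPKM and 11.8 FPKM. Another row, with the same linked transcript length of 5601 bases, was at 3.94 FPKM in mNRPCs and 0.323 FPKM in retina.

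**Figure D3:**
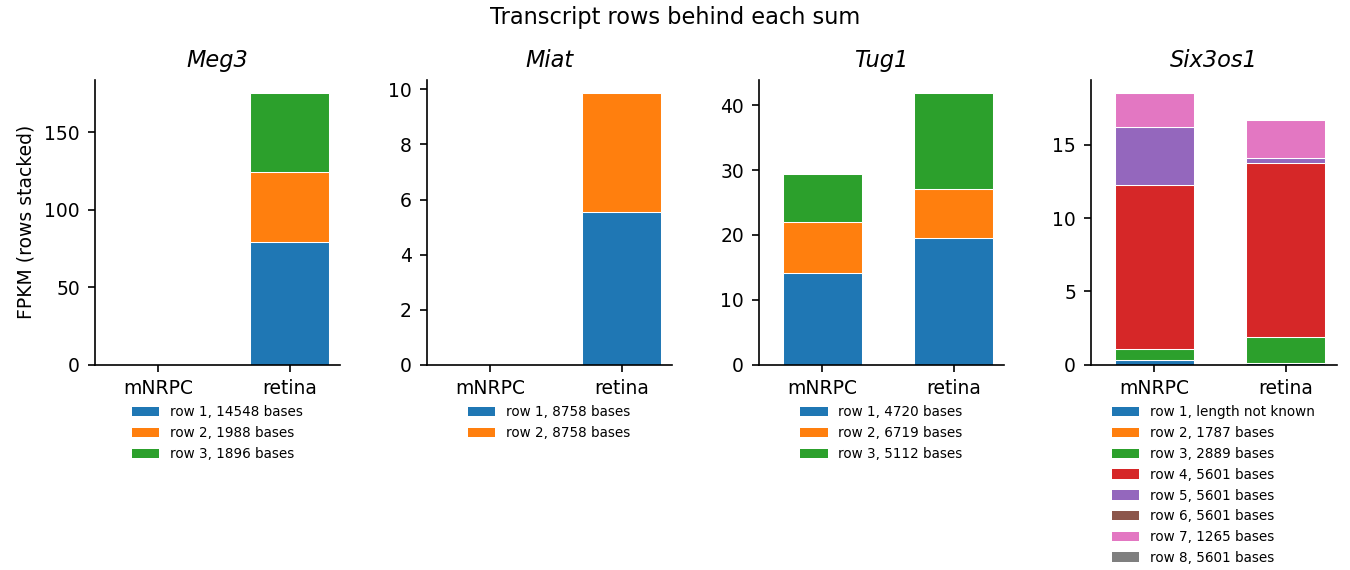
FPKM of the transcript rows behind the sums of Meg3, Miat, Tug1 and Six3os1, stacked for the mNRPC and the retina library (each panel has its own axis from 0). Colours mark rows, with the length in bases of the GENCODE transcript linked to each, where known. All rows of Meg3 and Miat are at or near 0 in mNRPCs, and a Six3os1 row (purple) is at 3.94 FPKM in mNRPCs and 0.323 FPKM in retina.

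Rmst, an RNA of the developing midbrain that binds SOX2 during neural differentiation, was the least abundant of the measured genes in retina. It was at 1.17 FPKM [0.723 to 1.80] in mNRPCs and 1.27 FPKM [0.740 to 2.04] in retina, about 20.7 and 16.9 fragments. The mNRPC value was 92.2% of the retina value, with a counting interval of 46.2% to 187%, so a difference of up to about that size was not detectable at this depth. Its partner Sox2 was at 231 FPKM in mNRPCs and 18.5 FPKM in retina (log2 ratio 3.57).

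The order of levels in retina was Mir124a-1hg, Malat1, Snhg11, Meg3, Tug1, Six3os1, Neat1, Miat and Rmst. Malat1 and Snhg11 had overlapping counting intervals, as did Six3os1 and Neat1. In mNRPCs the order was Neat1, Malat1, Tug1, Six3os1, Rmst, Snhg11, Mir124a-1hg, Meg3 and Miat, and the intervals of Snhg11, Mir124a-1hg and Meg3 overlapped.

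**Figure D4:**
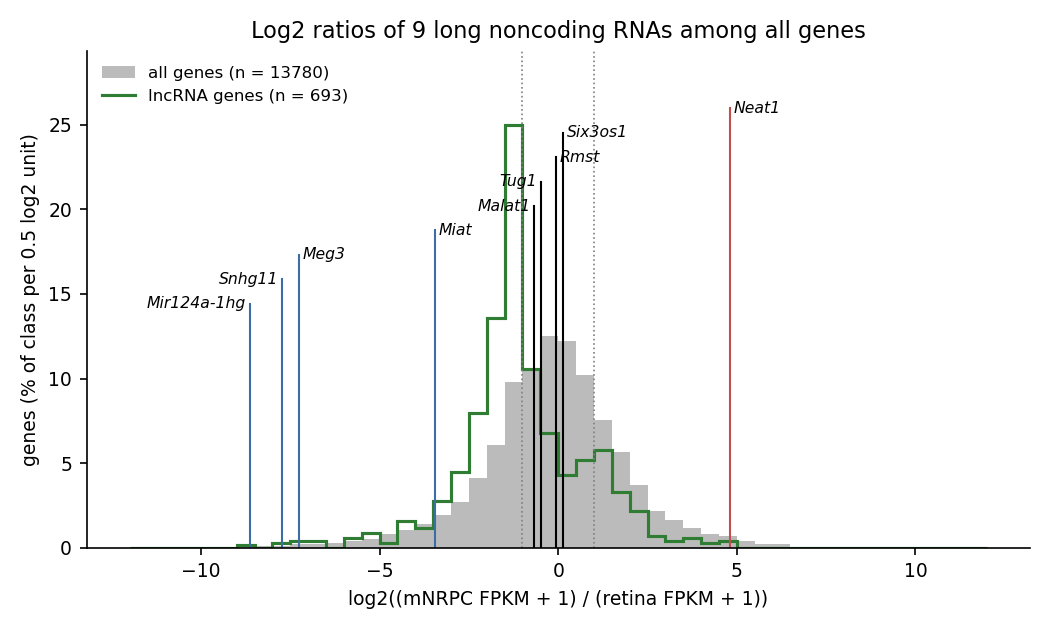
Distribution of log2((mNRPC FPKM + 1)/(retina FPKM + 1)) over all 13780 genes compared (grey) and over 693 lncRNA genes (green), in percent of each class per bin of 0.5, with the 9 measured long noncoding RNAs as vertical lines of arbitrary height (blue lower, black between, red higher). Dotted lines mark the threshold of 1 in size. The lncRNA curve peaks to the left of the grey one, Mir124a-1hg, Snhg11 and Meg3 lie at its left end and Neat1 at its right end.

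Related genes were read beside these RNAs. Among 15 other small nucleolar RNA host genes compared, 3 were higher, 1 lower and 11 between, with a median of 0.64, beside 13.7% of all lncRNA genes higher and 59.5% lower. Snhg6 (190 FPKM in mNRPCs and 43.7 FPKM in retina), Snhg4 (20.3 and 4.61 FPKM) and Snhg1 (162 and 46.8 FPKM) were higher, and Snhg20 (23.4 and 106 FPKM) was lower. The median of this group was -0.01 when rod and cone genes were left out of the scaling.

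Of 12 other lncRNAs of retina and brain that reached 1 FPKM, all 12 did so in retina and 5 in mNRPCs, so most entered through the library in which they are high. As a description, 11 were lower and 1 was higher, beside 59.5% of all lncRNA genes lower. Vax2os, antisense to the ventral eye gene Vax2, was at 206 FPKM in retina and 0.855 FPKM in mNRPCs. Peg13, an imprinted brain RNA, was at 77.8 FPKM and 3.61 FPKM, and Otx2os1, opposite to the photoreceptor regulator gene Otx2, was at 11.3 FPKM in retina and listed at 0 in mNRPCs. Sox2ot, which contains Sox2 in an intron, was the exception at 2.44 FPKM in retina and 8.67 FPKM in mNRPCs (log2 ratio 1.49, but 0.95 without rod and cone genes in the scaling). Sox2 and Sox2ot are on the same strand, and reads were given to each by the authors' estimation.

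Of 13 lncRNAs tied to growth or chromatin, 5 were higher and 5 lower (median -0.53), beside 13.7% and 59.5% of all lncRNA genes. In each library 10 of the 13 reached 1 FPKM. Pvt1, Bvht and Lncenc1 did so in mNRPCs only, and Tunar, Kcnq1ot1 and Jpx in retina only. Most of the higher and of the lower calls thus follow from the filter, and the counts are a description. Under the common sum 4 were higher and 7 lower (median -1.03). Without rod and cone genes in the scaling these were 2 and 8 (median -1.21). Pvt1, the neighbour of Myc, was at 4.68 FPKM in mNRPCs and 0.133 FPKM in retina (its single row was lost when accessions were matched with version), and Bvht at 5.87 and 0.409 FPKM. Ftx, a regulator of X inactivation, was at 2.68 FPKM in mNRPCs and 17.0 FPKM in retina, and Tunar, an RNA of neural cells, was at 4.94 FPKM in retina and listed at 0 in mNRPCs. Of 11 genes of the imprinted growth network, to which Meg3 and H19 belong, 3 were higher and 7 lower, with a median of -1.67, beside 24.5% and 30.0% of all genes. Of the 11, 8 reached 1 FPKM in mNRPCs and 10 in retina. Igf2, Peg3 and Grb10 did so in retina only and Peg10 in mNRPCs only, so the counts are a description. Grb10 was at 19.1 FPKM in retina and listed at 0 in mNRPCs. Igf2, the neighbour of H19, was at 8.09 FPKM in retina and 0.0371 FPKM in mNRPCs, and Igf2r, the receptor that clears IGF2, was at 4.23 FPKM and 75.9 FPKM. Peg3 (29.6 FPKM in retina, 0.181 FPKM in mNRPCs) and Ndn (112 and 4.55 FPKM), both paternally expressed, were lower, and Peg10 (0.858 and 13.3 FPKM) was higher.

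A mixed list held targets of miR-124, the product of Mir124a-1hg, and genes of the neuronal splicing switch. Of its 15 genes, 10 were higher, 3 lower and 2 between, with a median of 1.73, against 24.5% of all genes higher and 30.0% lower. Under the common sum 9 were higher (median 1.34). Without rod and cone genes in the scaling 8 were higher (median 1.16), and 3 were lower under either scaling. Ptbp1, a splicing repressor of non-neuronal cells and a target of miR-124, was at 118 FPKM in mNRPCs and 26.7 FPKM in retina (log2 ratio 2.11), whereas its neuronal relative Ptbp2 was at 18.4 FPKM and 54.5 FPKM (-1.51, and -4.56 with curated rows or the highest row alone). Itgb1 (268 and 14.2 FPKM) and Lamc1 (52.0 and 3.55 FPKM), genes of cell adhesion, had the largest ratios, at 4.15 and 3.54. Lhx2 (-2.06, and -1.10 with the highest row alone) and Jag1 (-2.50) were lower. The list was chosen with earlier results of these data known, and a part of the microRNA in these values was not tested. Of 6 genes of the REST complex, which represses neuronal genes in other cells, Hdac1 (1.51) and Hdac2 (1.18) were higher and 0 were lower, a share near the 24.5% of all genes higher. Without rod and cone genes in the scaling 0 of the 6 were higher (Hdac1 0.86, Hdac2 0.53), and under the common sum Hdac2 was at 0.68. Rest itself was at 7.81 FPKM in mNRPCs and 4.77 FPKM in retina (log2 ratio 0.61, and -0.16 with curated rows).

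**Figure D5:**
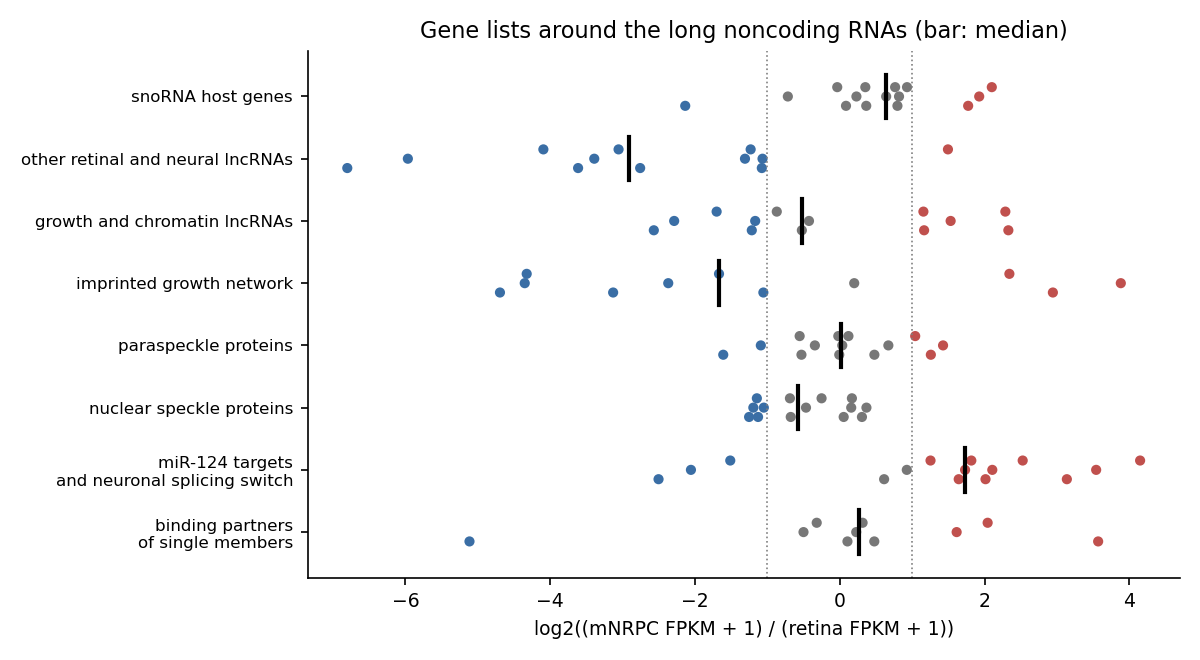
Log2 ratios of genes in 8 lists around the long noncoding RNAs, 1 point per gene that reached 1 FPKM in either library (red higher, blue lower, grey between, black bar the median of the list, dotted lines the threshold). The mixed list of miR-124 targets and genes of the neuronal splicing switch has a median of 1.73 and the paraspeckle proteins a median of 0.01.

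Other proteins and RNAs linked to these genes were compared as well. Ezh2, a subunit of the Polycomb complex that several lncRNAs were reported to bind, was at 30.1 FPKM in mNRPCs and 6.56 FPKM in retina (log2 ratio 2.04, with 1.42 to 3.39 under the alternatives), and Suz12 and Eed of the same complex had log2 ratios of -0.50 and 0.31 (-1.16 and -0.32 without rod and cone genes in the scaling). Eya1, a co-factor of SIX3-like proteins, was at 4.12 FPKM in mNRPCs and 0.673 FPKM in retina (log2 ratio 1.61, but 0.97 with the highest row alone). Counts over the whole list of 10 binding partners were 3 higher, 1 lower and 6 between, with the higher ones near the 24.5% of all genes. Of 12 RNAs without a poly(A) tail, 6 had a row in the table and 3 of these reached 1 FPKM in either library. Rn7sk was at 12.7 FPKM in mNRPCs and 20.4 FPKM in retina and Rpph1 at 5.05 and 8.96 FPKM, and both were lower under the common sum (-1.16 and -1.24) and without rod and cone genes in the scaling (-1.27 and -1.30). Terc, with 1.17 FPKM in mNRPCs and a listed value of 0 in retina, rested on about 3.27 fragments, and its log2 ratio, at least 1 otherwise, was 0.95 without rod and cone genes in the scaling.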

How the data were processed

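RNA of mNRPCs and of retina tissue was sequenced, 1 library each. The deposited values are FPKM per RefSeq transcript, made by the authors. The study's methods name quality control, Bowtie 2 and eXpress on the BGISEQ-500, while the submitters' processing notes name TopHat2 2.0.10 and build GRCm38.p3 and the series text another sequencer, so the steps behind the values are uncertain. The annotation release is not given in the sources used here. Rows were matched without version to the RefSeq table of GRCm38.p6, then to GENCODE M21 (74283 of 106754 rows, 69.6%), and summed per symbol. Estimates below 1e-06 FPKM were read as 0.

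A pseudocount of 1 FPKM was added before log2. Genes that reached 1 FPKM in either library were compared, with a threshold of 1 on the size of the log2 ratio. Depth came from the lowest FPKM steps of 6228 rows of at least 1500 bases (6.28e+06 and 4.83e+06 fragments with 500 bases), and intervals are exact Poisson for levels and Clopper-Pearson for ratios, at 95%. A gene at 0 is described as listed at 0. The depth estimate and the fold calls were tested on simulated data. The simulation held counting error only, in genes of 1 row, with changes larger than the threshold. It does not cover spread between samples or the sharing of fragments between rows. Gene members and lists were chosen with earlier results of these data known. All members are named, with nearest neighbours (a few genes are not reported here), known partners and up to 4 genes per list with the largest ratios. Python 3.11.15, pandas 2.3.3, numpy 2.4.6, SciPy 1.17.1 and matplotlib 3.10.9 were used. Alternatives were another pseudocount, other row choices, versioned matching, 4 scalings, other filters and another threshold.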

Additional observations from a re-analysis of the deposited data

How the results depend on the processing

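With 1 library per group no replicate could be left out, no sample-to-sample spread exists, and depth limits Rmst, Miat and the mNRPC values of Mir124a-1hg, Snhg11 and Meg3. No paired analysis was possible because mNRPC and retina had 1 library each. Mir124a-1hg, Snhg11, Meg3 and Miat stayed lower under 8 alternatives, some of which left their value as it was, and Neat1 stayed higher under 7 (4.16 to 4.89). Matching accessions with their version left Neat1 without a row, which gave 0 higher genes and a median of -2.05. The number of lower genes was 4, but 6 under the common sum and without rod and cone genes, because Malat1 and Tug1 joined. The median of the measured genes was -1.18 under the common sum, -1.34 without rod and cone genes, -0.60 under trimmed mean scaling and -0.80 under upper quartile scaling. The median of all genes was -0.68, -0.74 and -0.24 under the common sum, without rod and cone genes and under upper quartile scaling, -0.0099 with curated rows, 0.039 with a minimum of 5 FPKM and 0 with no filter. The median of lncRNA genes was -1.39 under the common sum, -1.39 without rod and cone genes, -2.28 with a pseudocount of 0.1 FPKM, -1.72 with a minimum of 5 FPKM and 0 with no filter, where most lncRNA genes are listed at 0 in both libraries. Of 1093 values under alternatives, named genes and lists included, 667 were scored as the same, 426 as moved and 0 as reversed. For the members these were 52, 19 and 0 of 71. The tolerance for a member above 0 in mNRPCs followed the width of its own counting interval. Thus Meg3 at -8.33 under the common sum was scored as the same, and Malat1 at -0.60 under trimmed mean scaling as moved. Only ratios and medians of at least 1 in size could be scored as reversed, so these counts are no measure of stability. Of log2 ratios or list medians that were at least 1 in size in the main setting, 0 changed sign. Smaller ones of some single genes did under some alternatives, among them Six3os1 and Sfpq (-0.56, but 2.88 with curated rows). So did the medians of snoRNA host genes, paraspeckle proteins and binding partners and that of all genes, all below 1 in size.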

Other observations

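Several lncRNAs outside the list showed differences of similar size, and they were picked after their values were seen. Among the 138 lncRNA genes above 10 FPKM in either library, BB283400 was at 194 FPKM in retina and Gm4792 at 150 FPKM, and both were listed at 0 in mNRPCs. AI847159 was at 173 FPKM in retina and 0.178 FPKM in mNRPCs. In the other direction, 1110038B12Rik was at 206 FPKM in mNRPCs and 11.6 FPKM in retina, and Lockd, the RNA downstream of the cell cycle inhibitor gene Cdkn1b, was at 29.0 FPKM and 1.09 FPKM. Wincr1 and 4930461G14Rik were at 26.6 FPKM and 24.4 FPKM in mNRPCs and were listed at 0 in retina. Morrbid, an RNA of blood cells that acts on the apoptosis gene Bcl2l11, was at 16.8 FPKM in mNRPCs and 0.943 FPKM in retina.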
